A study of Mus musculus with 19 samples.

Results

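The genes described here are 9 genes of lymphocyte homing and lymph node stroma, Ccl19, Ccl21a, Cxcl13, Ccr7, Cxcr5, Glycam1, Madcam1, Ltb and Lta, found by their symbols in 3 deposited RNA-Seq tables. All 9 were found in each table, as 11 gene IDs among the 55573 of the table of 7 tissues, 11 among the 55487 of the brown adipose tissue (BAT) table and 9 among the 13756 of the inguinal white adipose tissue (iWAT) table. The study holds 19 libraries of male mice on chow diet and addresses how Musclin, a protein secreted by muscle and encoded by Ostn, acts on adipose tissue. In iWAT and in BAT, 3 wild-type (WT) libraries were set against 3 libraries of MCK-Musclin mice, all after 1 week at 8 °C, so both genotypes had been exposed to cold. MCK-Musclin mice carry the Musclin coding sequence under the muscle creatine kinase promoter, which drives it in skeletal muscle on a background backcrossed to C57BL/6J. The iWAT and BAT animals were 5 months old. Which founder line was sequenced is not given in the sources used here. The 7 tissues came from C57BL/6J WT mice, for which the labels name no treatment, with 1 library per tissue and no biological replicate.

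In lymph nodes, fibroblastic reticular cells of the T cell zone secrete the chemokines Ccl19 and Ccl21a, which draw T cells and dendritic cells through the receptor Ccr7, while follicular stroma secretes Cxcl13, which draws B cells through Cxcr5. Lymphocytes enter through high endothelial venules, whose addressins include the mucin Glycam1 and Madcam1, a ligand of the integrin α4β7 known best from mucosal vessels. Lymphocytes in turn make lymphotoxin, a complex of Lta and Ltb that acts on the lymphotoxin β receptor of stromal and endothelial cells and, through the non-canonical NF-κB pathway, maintains these chemokines and addressins. Subcutaneous fat, the iWAT depot included, surrounds lymph nodes in the mouse, and the labels do not say whether the inguinal node was removed.

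The upstream sequences of Cxcl13, Madcam1 and Ltb are shown because their windows hold matches to GGGANNNNCC. These letters are used here as a loose form of the κB motif bound by NF-κB. The matches lie outside the gene and within 90 bases of the start. These genes were thus picked by the motif. Glycam1 and Ccl21a, which were also higher in MCK-Musclin iWAT, held no match. Other forms of the motif were not searched. Ccl19, whose match lies at the far end of a window that is mostly inside its annotated gene, is not shown. The sequences are those of RefSeq for GRCm38.p6, which held 7 of the 9 genes in the table used (not Ccr7 and Cxcr5), and they cover the 250 bases before the RefSeq start, cut where a gene of the GENCODE annotation begins. Capitals mark matches to GGGANNNNCC on either strand and, in Cxcl13, to TATAAA.
Cxcl13, chr5:95956689-95956938, plus strand: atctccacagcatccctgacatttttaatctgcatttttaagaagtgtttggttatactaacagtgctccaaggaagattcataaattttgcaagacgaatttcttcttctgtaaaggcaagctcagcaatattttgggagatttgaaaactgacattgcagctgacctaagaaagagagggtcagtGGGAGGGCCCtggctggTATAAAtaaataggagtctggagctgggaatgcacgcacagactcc
Madcam1, chr10:79664309-79664558, plus strand: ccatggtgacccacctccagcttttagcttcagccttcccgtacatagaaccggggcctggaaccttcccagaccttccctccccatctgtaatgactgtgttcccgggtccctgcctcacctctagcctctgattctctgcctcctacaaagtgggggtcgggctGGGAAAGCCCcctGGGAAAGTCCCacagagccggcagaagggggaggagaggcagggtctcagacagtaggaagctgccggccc
Ltb, chr17:35194257-35194438, plus strand: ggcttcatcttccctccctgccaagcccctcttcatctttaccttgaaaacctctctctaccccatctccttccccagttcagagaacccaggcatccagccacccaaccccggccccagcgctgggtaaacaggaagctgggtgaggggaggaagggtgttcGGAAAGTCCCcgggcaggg

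Madcam1 held 3 κB matches, of which those starting 71 bases (plus strand) and 70 bases (minus strand) before the start overlap, and the third starts 84 bases before it. Cxcl13 held 1 match at 63 bases and a TATAAA at 46 bases before the start, Ltb held 1 at 87 bases on the minus strand, and Ccl19 held 1 at 250 bases. No match was found in the windows of Ccl21a, Glycam1 and Lta. Of the 32851 RefSeq windows of this length, 17.6% held the κB letters and 12.4% held TATAAA. A match is therefore only a description of letters, and whether it is a bound site was not tested.

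By the GENCODE annotation of GRCm38, Ltb (chr17:35194439-35196320, plus strand) and Lta (chr17:35203165-35205351, minus strand) lie close together. So do Ccl19 (chr4:42754525-42756577) and Ccl21a (chr4:42772860-42773993), both on the minus strand. Genes lying between them were not listed. All 9 are protein-coding. Ccl19 and Ccl21a have second gene IDs on the scaffold JH584294.1, which are listed in the tables of 7 tissues and BAT. The Ccl21a transcript matched that of Ccl21b with 2 mismatches over 402 bases and that of Gm21541 with 6 over 870, and how the authors' counting shared reads between such copies is not known, so the levels of Ccl21a, and of Ccl19 with its second ID, are uncertain between copies. Exons of Cxcr5 overlap those of Bcl9l on the opposite strand, and the alignment did not use strand, so reads of the 2 cannot be told apart there.

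Summed FPKM (fragments per kilobase of transcript, scaled to the size of the library) was 364710 to 384104 in the iWAT libraries and 676362 to 720852 in the BAT libraries. Read depth is unknown for iWAT, and the BAT libraries were within 0.889 to 1.11 of the depth of the first. Ostn, the gene of the transgene, was at 0, 0 and 0 FPKM in WT BAT and at 37.9, 31.6 and 30.3 in MCK-Musclin BAT. In iWAT it was at 0, 0 and 0.225 FPKM in WT and at 0, 5.17 and 4.21 in MCK-Musclin libraries 1 to 3, so no transgene RNA was listed in the iWAT library labelled MCK-Musclin 1. Summed skeletal muscle markers (8 genes) spread from 8.92 to 2683 FPKM over the WT iWAT libraries. Over the MCK-Musclin ones they spread from 8.01 to 110, library 1 of each genotype being lowest. The transgene is driven in muscle, so Ostn does not check the label of MCK-Musclin library 1. Whether low muscle content accounts for its 0 was not tested. Ucp1, a thermogenic gene, was at 130, 248 and 346 FPKM in WT iWAT. In MCK-Musclin iWAT libraries 1 to 3 it was at 173, 31.6 and 2.91 FPKM, so library 1 lay within the WT range and the others below it. Adipoq, the adipocyte hormone, averaged 1055 ± 51.9 FPKM in WT and 946 ± 85.6 in MCK-Musclin iWAT (SD, n = 3 each).

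In iWAT of cold-exposed mice all 9 genes had a higher mean in MCK-Musclin than in WT mice. Fitted differences ran from 0.43 for Lta to 1.21 for Cxcl13 on the log2(FPKM + 1) scale, with a median of 0.75, while the median over all 12197 genes tested was 0.06. The cutoff of the study was a log2 fold change over 0.5 together with p under 0.05 before adjustment, with p from DESeq2. Here it was applied to limma fits of log2(FPKM + 1), so the calls can differ from those of the study. By it 8 of the 9 were higher and 0 lower, against 5.04% of all genes higher and 0.902% lower. In 8 of 9 the MCK-Musclin libraries all exceeded the WT libraries, against 17.9% of all genes tested. After Benjamini-Hochberg adjustment over all genes in limma, no gene of the table was below 0.05 (the smallest adjusted p was 0.0912, and 2012 genes had an unadjusted p under 0.05), and the 9 genes had adjusted p of 0.143 to 0.249. Glycam1, Ccr7, Ltb, Ccl19 and Cxcr5 are in a gene set that the study chose for being higher in these very libraries, so their direction is not independent of that choice.

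**Figure D1:**
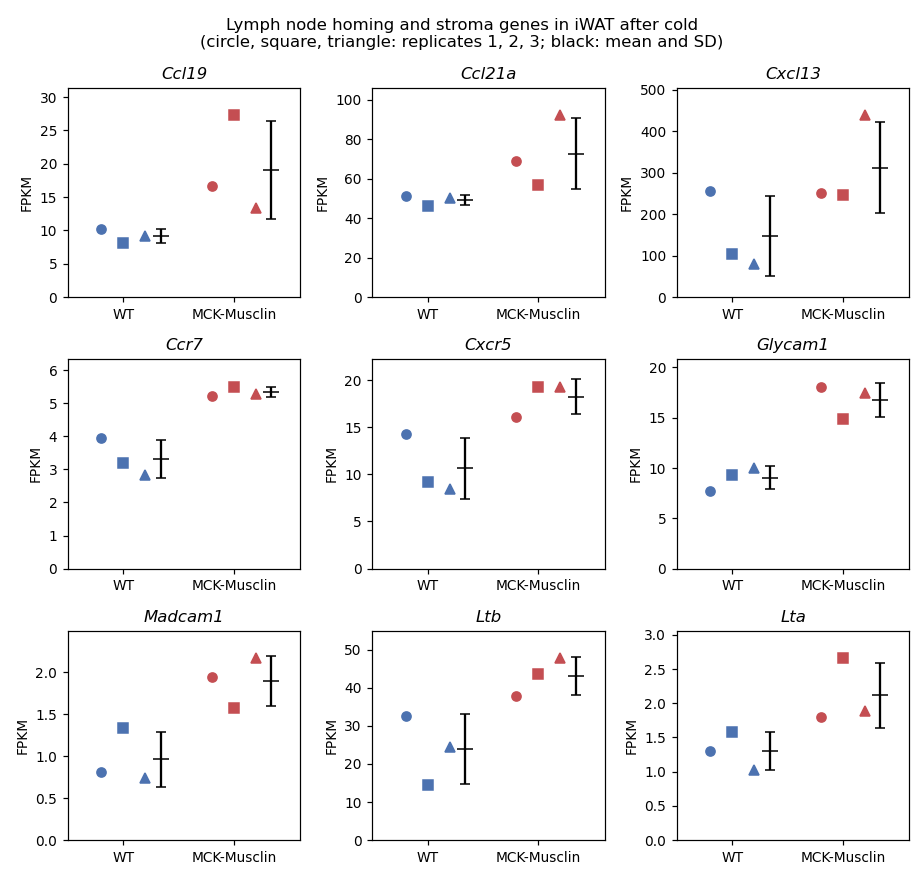
FPKM (y axis, from 0) of each of the 9 genes in the 3 WT and 3 MCK-Musclin iWAT libraries after cold, 1 panel per gene, with mean and SD in black. MCK-Musclin points lie above all WT points in every panel but that of Cxcl13, where WT replicate 1 reached 257 FPKM.

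Among the chemokines, Ccl19, a ligand of Ccr7, was at 10.2, 8.15 and 9.20 FPKM in WT and at 16.7, 27.3 and 13.3 FPKM in MCK-Musclin iWAT. The groups did not overlap, and MCK-Musclin library 2 stood highest. The log2 fold change was 0.92 ± 0.24 (SE, limma adjusted p = 0.159). Ccl21a, the other ligand of Ccr7, was at 51.3, 46.3 and 50.2 FPKM in WT and at 68.8, 56.9 and 92.3 FPKM in MCK-Musclin mice. Its WT libraries lay close together while the MCK-Musclin libraries spread 1.62-fold, and the log2 fold change was 0.53 ± 0.17 (limma adjusted p = 0.211). Cxcl13, the ligand of Cxcr5, was the most abundant of the 9, at 257, 105 and 79.6 FPKM in WT and 252, 246 and 439 FPKM in MCK-Musclin mice. Here the groups overlapped, since WT library 1 lay above MCK-Musclin libraries 1 and 2, and only MCK-Musclin library 3 stood above all WT libraries. Its fitted log2 fold change of 1.21 ± 0.43 had the largest size and the largest error of the 9 (limma adjusted p = 0.236).

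Both receptors were less abundant than their ligands and less variable within MCK-Musclin mice. Ccr7, carried by naive T cells, was at 3.94, 3.18 and 2.83 FPKM in WT and at 5.22, 5.51 and 5.29 FPKM in MCK-Musclin libraries. The MCK-Musclin values differed from each other by at most 1.06-fold, all above WT, and the log2 fold change was 0.56 ± 0.12 (limma adjusted p = 0.148). Cxcr5, carried by follicular B cells and follicular helper T cells, was at 14.3, 9.16 and 8.43 FPKM in WT and at 16.1, 19.3 and 19.3 FPKM in MCK-Musclin libraries. WT library 1 was again the highest of its group, close to MCK-Musclin library 1, and the log2 fold change was 0.75 ± 0.19 (limma adjusted p = 0.157).

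Glycam1, the addressin of high endothelial venules, was at 7.74, 9.35 and 9.96 FPKM in WT and at 18.1, 14.9 and 17.4 FPKM in MCK-Musclin libraries. The gap between the groups was wide against the spread within them, and WT library 1 was here the lowest, not the highest, of its group. Its log2 fold change of 0.83 ± 0.13 had the smallest unadjusted p of the 9 (2.63e-04 in limma, adjusted 0.143). Madcam1 was at 0.812, 1.34 and 0.742 FPKM in WT and at 1.94, 1.58 and 2.17 FPKM in MCK-Musclin libraries, the lowest levels of the 9 in WT. The groups did not overlap, though WT library 2 lay near MCK-Musclin library 2, and the log2 fold change was 0.57 ± 0.16 (limma adjusted p = 0.176). At such low levels it depends on the value added to FPKM, and with 0.1 in place of 1 it was 0.94.

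Of the lymphotoxin chains, Ltb, which anchors the complex to the membrane, was at 32.7, 14.5 and 24.5 FPKM in WT and at 37.8, 43.6 and 47.7 FPKM in MCK-Musclin libraries. WT library 1 lay closest to the MCK-Musclin libraries, and the log2 fold change was 0.89 ± 0.26 (limma adjusted p = 0.188). Lta, the secreted chain, was at 1.30, 1.58 and 1.03 FPKM in WT and at 1.80, 2.66 and 1.88 FPKM in MCK-Musclin libraries. The groups did not overlap, but the log2 fold change of 0.43 ± 0.16 lay under the cutoff of 0.5 (limma adjusted p = 0.249). With 0.1 in place of 1 added to FPKM it was 0.66 and passed.

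On the FPKM scale, which is per length, the WT means were ordered Cxcl13 (147 ± 95.7), Ccl21a (49.3 ± 2.64), Ltb (23.9 ± 9.10), Cxcr5 (10.6 ± 3.19), Ccl19 (9.19 ± 1.03), Glycam1 (9.02 ± 1.14), Ccr7 (3.32 ± 0.568), Lta (1.30 ± 0.276) and Madcam1 (0.964 ± 0.325) FPKM (SD, n = 3). Cxcr5, Ccl19 and Glycam1 did not differ from each other beyond their spread, nor did Lta from Madcam1. In MCK-Musclin mice the means were 312 ± 110 for Cxcl13, 72.7 ± 18.0 for Ccl21a, 43.1 ± 4.98 for Ltb, 19.1 ± 7.32 for Ccl19, 18.2 ± 1.85 for Cxcr5, 16.8 ± 1.71 for Glycam1, 5.34 ± 0.150 for Ccr7, 2.11 ± 0.473 for Lta and 1.90 ± 0.298 FPKM for Madcam1. Cxcr5 and Ccl19 thus changed places, within their spread.

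Ccl19, Cxcr5, Glycam1 and Ltb stayed at the cutoff under every alternative run, while Ccl21a, Cxcl13, Ccr7 and Madcam1 each fell below it under some, Cxcl13 without WT library 2, WT library 3 or MCK-Musclin library 3. Leaving out WT library 3 reduced the count from 8 to 5, and leaving out the library labelled MCK-Musclin 1 raised it to 9. Each library was also centred on adipocyte markers, a setting added after seeing the data that moved the median of all genes from 0.06 to 0.29. All 9 then passed the cutoff, as did 2090 of all 12197 genes tested on the higher side. Of the 9, 8 (not Cxcl13) had limma adjusted p under 0.05, as did 1707 of those 12197 genes. The share of higher among all genes called was then 98.9% in place of 84.8%. With median-ratio scaling that share was 69.5% and 6 of the 9 genes passed. Relative to the median of all genes the median of the 9 was 0.69 in each of these 3 fits.

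A further list held 16 genes of lymphotoxin and non-canonical NF-κB signaling, of which 14 were tested in iWAT. Their RNA levels do not measure the activity of the pathway. At the cutoff 3 were higher and 0 lower, with a median log2 fold change of 0.28. Birc3, an NF-κB target that restrains the pathway, was at 21.9 ± 2.00 FPKM in WT and 32.7 ± 0.522 in MCK-Musclin iWAT (log2 fold change 0.56 ± 0.10 SE, limma adjusted p = 0.143). Tnfsf11, the ligand RANKL, differed by 0.64 ± 0.15 on the log2 scale (limma adjusted p = 0.148) and Nfkb2, which encodes the p100 precursor, one of 0.63 ± 0.16 (limma adjusted p = 0.161). Map3k14, the kinase NIK, had 0.46 ± 0.11 (limma adjusted p = 0.148) and stayed under the cutoff. Ltbr, the lymphotoxin β receptor, was at 15.7 ± 0.135 FPKM in WT and 15.8 ± 1.42 FPKM in MCK-Musclin mice. The other ligands were low, with Tnfsf14 at 0.375 to 0.994 FPKM in WT and 0.794 to 1.19 FPKM in MCK-Musclin libraries, and Tnf at 0.414 to 1.16 FPKM and 0.780 to 1.19 FPKM.

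Of 14 genes of related chemokine axes, 12 were tested and 2 were higher, Gpr183 (log2 fold change 0.69 ± 0.18, limma adjusted p = 0.157), the oxysterol receptor that positions B cells, and Ccl20, the ligand of Ccr6 (0.94 ± 0.27, limma adjusted p = 0.181). Ccl21b, the near copy of Ccl21a, was at 2.96 ± 0.508 FPKM in WT against 4.15 ± 0.562 in MCK-Musclin mice, with a log2 fold change of 0.38 ± 0.14 under the cutoff. Cxcl12, a chemokine of many stromal cells, was at 29.9 ± 2.83 FPKM in WT against 30.2 ± 5.28 in MCK-Musclin mice, and its receptor Cxcr4 had a log2 fold change of 0.30 ± 0.15.

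Among 19 genes of high endothelial venules and homing, 17 were tested, 5 were higher and 0 lower at the cutoff. The integrin ligands Icam1 (log2 fold change 0.54 ± 0.10 SE, limma adjusted p = 0.143) and Vcam1 (0.52 ± 0.14, limma adjusted p = 0.162) were among the 5. Chst4 and Fut7, enzymes that modify the glycans of such venules, were at 0.336 to 0.594 FPKM and 0.436 to 0.523 FPKM in WT and at 0.362 to 0.556 FPKM and 0.646 to 1.02 FPKM in MCK-Musclin libraries, too low to be tested.

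The reticular stroma list had 6 of 11 genes higher and 0 lower, with a median log2 fold change of 0.52. Bst1, a surface marker of stromal cells, was at 2.37 ± 0.385 FPKM in WT and 4.83 ± 0.442 FPKM in MCK-Musclin mice (log2 fold change 0.79 ± 0.13, limma adjusted p = 0.143). Clu, a secreted chaperone abundant in follicular dendritic cells, was at 109 ± 31.8 and 220 ± 56.5 FPKM, and Cxcl10, an interferon-induced chemokine, had the largest log2 fold change of the list, 1.54 ± 0.44 (limma adjusted p = 0.180). Pdpn and Il7, which define reticular fibroblasts, had 0.19 ± 0.20 and 0.18 ± 0.18 and did not pass. Of 6 follicular genes tested, Fcer2a (log2 fold change 1.01 ± 0.27) and Cr2 (0.57 ± 0.19), both carried also by B cells, were higher, and of 6 lymphatic endothelial genes 0 passed, with Lyve1 at 58.6 ± 7.01 and 70.5 ± 18.1 FPKM.

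Markers of B and T cells moved with the 9 genes. All 10 B cell markers were higher at the cutoff (median log2 fold change 0.92), with Ms4a1, the surface protein CD20, at 20.4 ± 7.79 FPKM in WT against 36.2 ± 4.77 in MCK-Musclin mice. Their summed level was 390, 241 and 205 FPKM in WT and 453, 580 and 572 FPKM in MCK-Musclin libraries, with no marker at 0, and WT library 1 was the highest of its group, as it was for Ccl19, Ccl21a, Cxcl13, Ccr7, Cxcr5 and Ltb. Of 13 T cell markers, 9 were higher (median 0.66), with Cd3e at 11.1 ± 1.40 and 18.5 ± 0.892 FPKM, and their summed level was 226, 151 and 212 FPKM in WT and 303, 332 and 308 FPKM in MCK-Musclin libraries. Other cell types gave smaller medians: 0.45 for 4 germinal center genes (0 called), 0.30 for 8 dendritic cell genes (1 higher), 0.22 for 10 macrophage genes (1 higher), -0.02 for 6 blood vessel genes (0 called) and -0.20 for 8 adipocyte genes (0 called). The 8 skeletal muscle genes had a median of -2.22 and 0 called, WT libraries 2 and 3 being high, and their part in these differences was not tested. In bulk tissue, more cells of a type and more RNA per cell cannot be told apart, and neither can lymph node tissue in the dissected fat and lymphocytes within the fat.

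**Figure D2:**
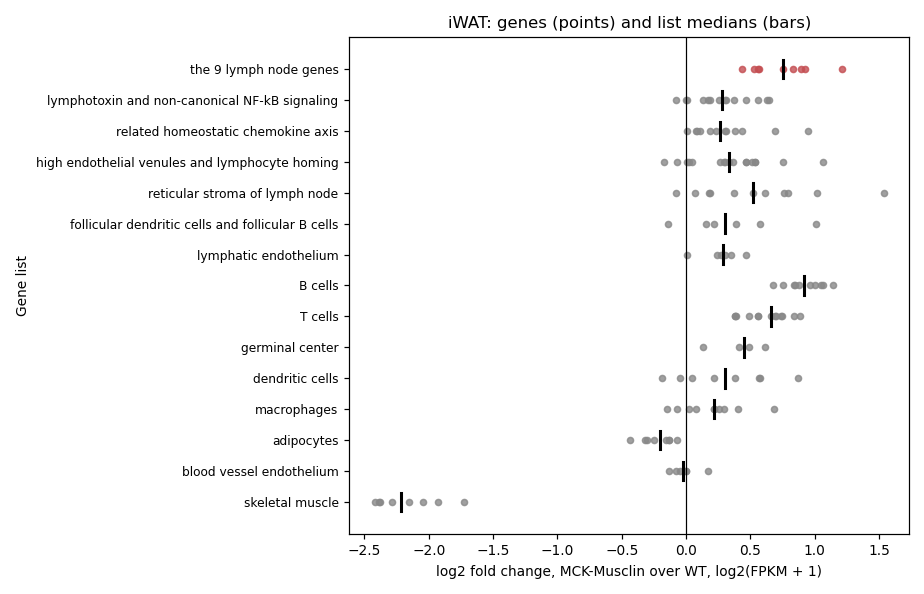
Log2 fold change in iWAT (x axis, MCK-Musclin over WT, log2(FPKM + 1) scale) of every tested gene of each list (points) with the list median (bar). The 9 lymph node genes, at a median of 0.75, sit between the B cell list (0.92) and the T cell list (0.66).

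To place the 9 genes against the lymphocyte markers, the mean log2(FPKM + 1) of the 23 B and T cell markers of a library was subtracted from each gene. That mean was itself 4.31, 3.75 and 3.90 in WT and 4.67, 4.80 and 4.74 in MCK-Musclin libraries, a difference of 0.75 (exact two-sided permutation p = 0.1, the smallest that 3 against 3 allows). Relative to it, 5 of the 9 genes were higher and 4 lower in MCK-Musclin mice, with differences from -0.32 for Lta to 0.47 for Cxcl13, which ranged from -0.48 to -0.11 and from 0.17 to 0.80 when 1 library was left out. Glycam1 differed by 0.08, from -0.67 ± 0.44 in WT to -0.59 ± 0.20 (SD, n = 3 each, exact permutation p = 0.9). Cxcr5 differed by 0.01 (exact permutation p = 0.9), Ltb by 0.14 (exact permutation p = 0.7) and Ccl19 by 0.18 (exact permutation p = 0.7). Madcam1 differed by -0.18 (exact permutation p = 0.8) and Ccl21a by -0.22 (exact permutation p = 0.6). The value added to FPKM weighs most on the genes of lowest level, Madcam1, Lta and Ccr7. With 0.1 in place of 1 the Madcam1 difference turned positive, so its sign depends on that value. Ccr7, at -1.89 ± 0.17 in WT and -2.07 ± 0.03 in MCK-Musclin mice, was the only one of the 9 whose libraries did not overlap on this scale (difference -0.19, exact permutation p = 0.1), and with 0.1 in place of 1 added to FPKM its groups overlapped (difference -0.11, exact permutation p = 0.5). All adjusted p over the 9 genes were 0.9, a design of 3 against 3 cannot reach 0.05, and a p that misses the threshold does not show equal levels.

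**Figure D3:**
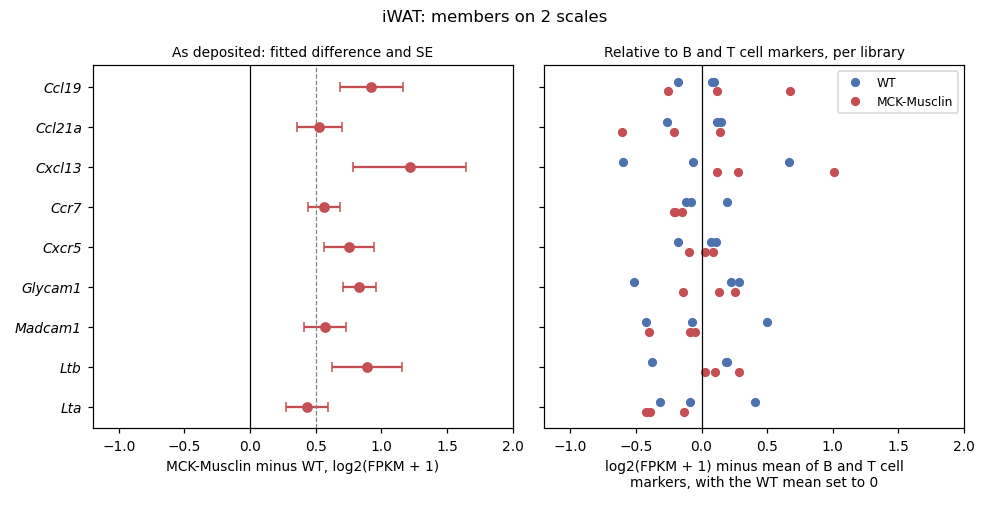
Left, fitted log2 difference of each gene in iWAT with its SE, all above 0, the dashed line being the cutoff of 0.5; right, each library's level relative to 23 B and T cell markers, with the WT mean set to 0. On the right the WT and MCK-Musclin points overlap for every gene but Ccr7, which lay lower in MCK-Musclin mice, a separation lost with 0.1 added to FPKM.

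In BAT of the same kind of mice these genes, other than Cxcl13 and Ccl21a, were at or near 0. Ccl19 under both IDs, Glycam1 and Lta were listed at 0 in all 6 libraries. Ccr7, Cxcr5, Ltb and Madcam1 did not exceed 0.242 FPKM in any library, and Ccl21a was at 0.134 to 0.796 FPKM (second ID 0.160 to 1.57 FPKM). Cxcl13 was the only one of the 9 with a mean of at least 1 FPKM, at 1.49, 1.11 and 2.26 FPKM in WT and 2.16, 1.36 and 4.86 FPKM in MCK-Musclin libraries. The groups overlapped, with MCK-Musclin library 3 standing alone at the top, and the log2 fold change of 0.45 ± 0.33 did not pass (limma adjusted p = 0.968). At the BAT cutoff, a log2 fold change over 0.3 with p under 0.05, 1.85% of the 10893 genes tested were higher, and in 4.38% the MCK-Musclin libraries all exceeded the WT ones. Without MCK-Musclin library 2 the Cxcl13 difference was 0.74 and passed that cutoff, and without library 3 it was 0.09. With no filter on low values 7 gene IDs of the 9 genes could be tested in BAT and 0 passed.

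Lymphocyte markers were as low in BAT, with summed B cell markers at 0.896 to 2.75 FPKM and summed T cell markers at 1.59 to 2.92 FPKM, and 0 of either list had a mean of 1 FPKM. The lymphotoxin receptor gene Ltbr was at 8.09 ± 0.449 FPKM in WT against 7.57 ± 0.0826 in MCK-Musclin mice. Relative to the lymphocyte markers, themselves near 0, Cxcl13 differed by 0.46 (exact permutation p = 0.5). Ucp1, the thermogenic protein of brown fat, was at 2778 to 3792 FPKM in these libraries.

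Across 7 tissues of WT mice, each with a single library, Ccl19, Ccl21a and Cxcr5 were highest in white adipose. Ccr7, Cxcl13, Ltb and Madcam1 were highest in small intestine and Lta in brown adipose. Ccr7, Cxcr5 and Lta were under 1 FPKM in every tissue. Ccl21a was at 26.2 FPKM in white adipose, followed by 5.06 in small intestine, 2.09 in heart, 1.79 in tibialis anterior muscle and 1.58 in brown adipose, and was under 0.2 in brain and liver. White adipose thus held 70.9% of the summed FPKM of the 7 tissues, 5.11 times the next tissue with 0.1 added to each, and the second ID gave 34.9 and 8.33 FPKM for the same 2 tissues. Ccl19 was at 1.80 FPKM in white adipose, at 0.384 in muscle and at 0 in the other 5, so both ligands of Ccr7 were highest in white adipose at 2 or more times the next tissue, as were 5.64% of the 18327 genes with at least 1 FPKM in some tissue. With median-ratio scaling the Ccl19 ratio was 1.63, under that threshold. Ccr7 itself was at 0 in that white adipose library and at most 0.313 FPKM, in small intestine.

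Cxcl13 was nearly level between small intestine (7.79 FPKM) and white adipose (6.84), with 3.64 in liver and 2.88 in brown adipose and under 0.05 in the others, and the order of the first 2 turned after rescaling to TPM. Its receptor Cxcr5 did not exceed 0.215 FPKM. Ltb was highest in small intestine at 3.53 FPKM, ahead of 0.893 in white adipose, and Madcam1 was listed above 0 in small intestine alone, at 1.63 FPKM. Ltb and Madcam1 were 2 of the genes highest in small intestine at 2 or more times the next tissue, as were 11.9% of the genes. Lta was at 0.284 FPKM in brown adipose and 0.268 in small intestine and lower elsewhere, and Glycam1 was listed at 0 in all 7 tissues.

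**Figure D4:**
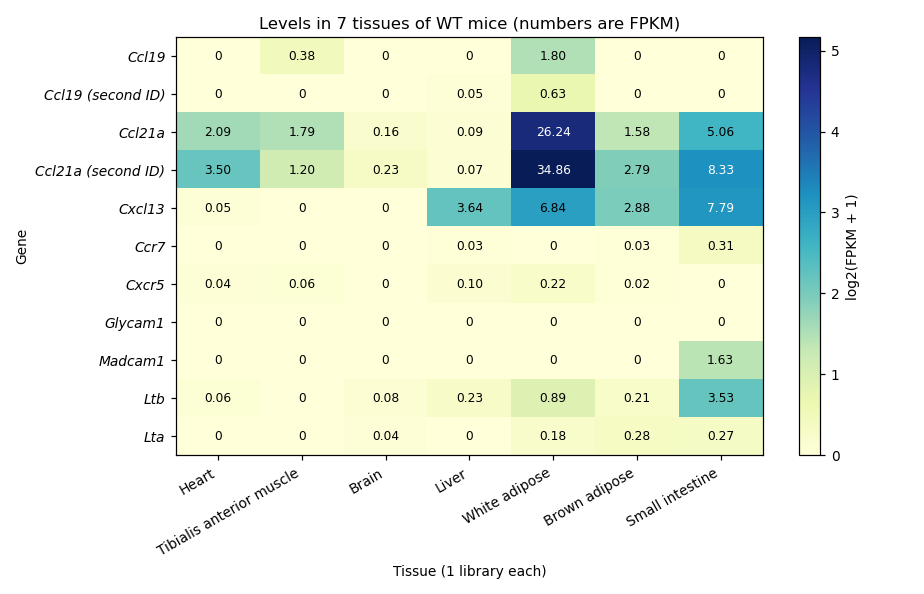
FPKM of the 9 genes in 7 WT tissues (x axis, 1 library each), with color for log2(FPKM + 1) and rows for gene IDs, the second IDs of Ccl19 and Ccl21a included. Ccl21a stands out in white adipose at 26.2 and 34.9 FPKM, and Glycam1 is at 0 throughout.

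Patterns most like these over the 7 tissues are given as a description, with Pearson's r of log2(FPKM + 1) over 7 libraries. Cxcl13 was followed by Kdm1b (r = 0.998), Alg5 (0.991) and Zbtb7b (0.989). Ccl21a was followed by Plaur (0.989), its own second ID (0.983) and Ccdc102a (0.978), and Ccl19 by Gm7542 (0.994), Gm27494 (0.991) and Bnc2 (0.980). Ltb had 54 genes above 0.99, led by Rps3a1, and Madcam1 had 600, being a gene of a single tissue.

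The 3 tables were normalized separately, so levels can only be set side by side. Glycam1 was at 7.74 to 18.1 FPKM in iWAT and at 0 in white adipose among the 7 tissues, where the depot is not given. B cell markers summed to 205 to 580 FPKM in iWAT and to 18.2 FPKM in that library, and T cell markers to 151 to 332 and 16.4 FPKM. Ccl21a, at 46.3 to 92.3 FPKM in iWAT, was also well expressed there, whereas Cxcr5, at 8.43 to 19.3 FPKM in iWAT, was at 0.215.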

How the data were processed

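Poly(A) RNA of 19 libraries was sequenced. The authors filtered reads with fastp and bowtie2, aligned them to mm10 (GRCm38) with HISAT2 without strand, and deposited FPKM values per gene and library. StringTie is named in the study's methods. The submitters' processing notes list Bowtie2 2.4.1, HISAT2 2.1.0 and Cuffdiff, not StringTie, so which tool gave the deposited FPKM is uncertain. The deposited iWAT table also holds the fold changes, p-values and FDR of the authors' own comparison and mean signals per group, none used here, and how its genes were selected is not given in the sources used here. Repeated lines (287 in the other 2 tables) were used once. All per-library columns were used.

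Genes whose FPKM averaged 1 or more over the 6 libraries of a table were kept. Their log2(FPKM + 1) values were fitted by genotype in limma 3.58.1 under R 4.3.3 (functions lmFit and eBayes, trended prior variance), and p-values were adjusted by Benjamini-Hochberg over the kept genes. The fitting script was tested on simulated data. Levels relative to lymphocyte markers were compared by exact permutation tests in scipy 1.17.1 (Python 3.11.15, numpy 2.4.6, pandas 2.3.3), and figures were drawn with matplotlib 3.10.9. The labels call the libraries biological replicates. FPKM values carry no read depth, so no interval from counts is given.

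The 9 genes and the 14 other lists were chosen with earlier results of these data known. Named are all 9 genes and, from each list, at most the 4 genes with the smallest p and its defining genes (for example Ltbr, Cr2, Cd3e). Some genes of the lists are not reported here by name. Alternatives were another pseudocount, filter or scaling, each library left out, and the replicate number as a block. Positions and copies were taken from GENCODE M21 and promoter windows from RefSeq.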

Additional observations from a re-analysis of the deposited data

How the results depend on the processing

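In iWAT each of the 9 genes kept its direction under every alternative in which it was tested (6 of them at a mean FPKM of at least 5). Without 1 library, 5 to 9 of them passed the cutoff in iWAT (5 without WT library 3) and 0 to 1 in BAT. The count of all genes lower in iWAT, 110, became 71 at a mean FPKM of at least 5, 201 with TPM, 187 with median-ratio scaling, 23 when centred on adipocyte markers and 92 to 211 without 1 library, and that of genes higher, 615, became 2090 with the adipocyte centring. In BAT, 202 higher and 234 lower became 102 and 114 at a mean FPKM of at least 5 and 396 and 112 with the adipocyte centring. The causes were not tested, except that the stricter filter tests fewer genes. Levels relative to lymphocyte markers changed sign with single libraries, ranging from -0.0712 to 0.393 for Ccl19, -0.0832 to 0.0603 for Cxcr5, -0.173 to 0.226 for Glycam1, -0.0489 to 0.239 for Ltb and -0.392 to 0.0685 for Madcam1, while Cxcl13 ranged from 0.166 to 0.800, Lta from -0.475 to -0.114, Ccl21a from -0.406 to -0.0326 and Ccr7 from -0.245 to -0.0874 without a change of sign. Madcam1 was at 0.146 and Ccr7 at -0.109 with 0.1 added to FPKM. After rescaling to TPM, Cxcl13 was highest in white adipose (1.05 times small intestine) and Lta in small intestine (1.22 times the next).

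Libraries were not paired by replicate number in the main fit, and whether the numbers mark pairs is not given in the sources used here. Deviations of same-numbered libraries correlated at 0.06 to 0.23 in iWAT, where 5 of 6 libraries correlated best with their own number, and at -0.10 to 0.01 in BAT. With the number as a block, 620 genes were higher and 154 lower in iWAT, and 8 of the 9 genes passed. The 3 libraries per group and unknown depth limit all of these values.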
